A study of Homo sapiens with 6 samples.

Results

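Most of the genes described here build ribosomes, as subunits of RNA polymerase I or as nucleolar factors that cut, modify and assemble ribosomal RNA. They were taken by symbol and gene type: protein-coding rows named POLR1A to POLR1H, the UTP, NOP, NOL, NOC and RRP families, RRS1, BOP1, PES1, FBL, DKC1, NHP2, GAR1, WDR12, WDR43, WDR75, NPM1 and UBTF. The rule gave 56 of the 39323 genes in the count table, after leaving out 2 symbols that also match. The rule itself used no measured value, but the set was chosen with earlier results of these data known. Of the 56 genes, 55 passed the filter on low counts. NOL4 did not, with 0, 0 and 4 reads in the siSF3B6 libraries and 8, 3 and 2 reads in the siNC libraries.

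The libraries were polyadenylated RNA from MDA-MB-231, a line of human breast cancer cells that lack hormone receptors and look mesenchymal. The siSF3B6 group was transfected with a small interfering RNA duplex against SF3B6 (n = 3), and the siNC group with a non-targeting duplex by the same lipid reagent (n = 3). SF3B6 belongs to SF3b, which helps the spliceosome's U2 particle hold the branch point of an intron. The series design asks what SF3B6 does in these cells, and the only contrast it gives for expression is siSF3B6 against siNC. A single duplex per group was used. The design text calls the replicates biological, but no label ties them to separate cultures, so p-values measure only the spread between these libraries, which may be technical.

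In the nucleolus, RNA polymerase I transcribes the ribosomal DNA repeats into a long precursor with the help of UBTF, which keeps the repeats open. The small-subunit processome, built from UTP-A, UTP-B, the U3 box C/D particle and many single factors, folds and cuts the part that becomes the small subunit. Box C/D and box H/ACA particles methylate the RNA and convert uridine to pseudouridine. The PeBoW complex and some of the NOC, RRP and NOP factors mature the large subunit. Others of these families act on the small subunit or belong to box C/D or box H/ACA particles. Many of these genes carry promoter E-boxes and are textbook targets of MYC in growing tumour cells.

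Promoter letters are shown first because a sequence feature that the selection rule did not use was more frequent in these genes than in protein-coding genes. Windows from 250 bases before to 50 bases after the RefSeq gene start (GRCh38.p14) were available for 48 of the 55 tested genes. The canonical E-box, CACGTG, reads the same on both strands. It occurred in 18 of 48 genes (37.5%) and in 12.5% of 10606 tested protein-coding genes, counting a gene if any of its windows matched. Counted by window and not by gene, it was in 7.26% of all 35116 windows of this length. The 2 windows below are from a gene whose RNA was lower in siSF3B6 (RRP9) and a gene whose RNA was higher (WDR43). Capitals mark the E-box, which begins 5 bases before the RRP9 start and at base 4 after the WDR43 start. The RRP9 window is chr3:51941855-51942154, minus strand, and the WDR43 window is chr2:28894417-28894716, plus strand.
RRP9: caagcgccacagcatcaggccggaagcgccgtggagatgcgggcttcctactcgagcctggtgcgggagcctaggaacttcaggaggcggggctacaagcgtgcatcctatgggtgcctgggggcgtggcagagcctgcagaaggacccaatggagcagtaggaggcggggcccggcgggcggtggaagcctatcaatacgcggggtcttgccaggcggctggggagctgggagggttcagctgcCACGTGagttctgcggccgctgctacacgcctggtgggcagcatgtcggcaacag
WDR43: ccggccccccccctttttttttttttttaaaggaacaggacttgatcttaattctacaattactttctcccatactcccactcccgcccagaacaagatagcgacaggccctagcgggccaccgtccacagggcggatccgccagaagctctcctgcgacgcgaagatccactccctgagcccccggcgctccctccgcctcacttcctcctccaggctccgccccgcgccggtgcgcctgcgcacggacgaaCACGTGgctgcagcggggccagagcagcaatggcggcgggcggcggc

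E-boxes stood beside the start in genes called in either direction, as 26-base stretches show. FBL, UTP20, POLR1G, NOP14 and PES1 were lower in siSF3B6, and UTP25, NOL8 and NOP10 were higher. The stretches lie at chr19:39846358-39846383 (FBL, minus strand), chr12:101280085-101280110 (UTP20, plus strand), chr19:45406622-45406647 (POLR1G, plus strand), chr4:2963376-2963401 (NOP14, minus strand), chr22:30591882-30591907 (PES1, minus strand), chr1:209827976-209828001 (UTP25, plus strand), chr9:92325344-92325369 (NOL8, minus strand) and chr15:34343132-34343157 (NOP10, minus strand).
FBL: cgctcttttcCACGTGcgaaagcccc
UTP20: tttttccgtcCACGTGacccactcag
POLR1G: cctttggatcCACGTGgtctgcaacc
NOP14: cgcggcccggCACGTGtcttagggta
PES1: cttggcagggCACGTGcgggaggaag
UTP25: tcagcgagccCACGTGcttgtgttga
NOL8: tccgttgggaCACGTGaccagaagtt
NOP10: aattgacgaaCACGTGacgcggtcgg

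The E-box was present among genes of either direction. It was found in 4 of 8 genes called higher, 6 of 15 called lower and 8 of 25 not called. The 18 genes with an E-box had a median log2 fold change of 0.06, with 10 positive and 8 negative, and the 30 without had a median of -0.08, with 10 positive and 20 negative. Among other ribosome biogenesis genes that the rule does not hold, 25 of 91 genes with a window (27.5%) had an E-box. MYC, whose protein binds this sequence, had 138, 129 and 132 CPM in siSF3B6 and 83.9, 85.0 and 92.5 CPM in siNC (log2 fold change 0.61, SE 0.077, edgeR adjusted p = 5.83e-05). CPM is a read count scaled to library size, here with TMM factors for library composition. Of the other motifs searched on both strands, the ETS letters CCGGAAG were in windows of 35.4% of the genes, against 21.9% of protein-coding genes. CCAAT was in 33.3% against 43.2%, and the GC box GGGCGG in 64.6% against 76.7%. Rarer were a palindrome centred on CGCG (6.25% against 1.02%), the NRF1 motif (6.25% against 2.56%), the E2F letters TTTCGCGC (4.17% against 1.13%) and the YY1 motif (4.17% against 3.20%). Each of these was in 2 or 3 genes of the set. A match is only a stretch of letters in this window.

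The knockdown and the libraries were checked first. SF3B6 had 22.5, 25 and 21.3 CPM in siSF3B6 and 86.3, 80.4 and 102 CPM in siNC, or 25.6% of the siNC level (log2 fold change -1.96, SE 0.104, edgeR adjusted p = 1.43e-07). The groups did not overlap, and an exact permutation test (two-sided) gave p = 0.1, which is the smallest p possible with 3 against 3 libraries. Totals were 30684131 to 38546037 reads in siSF3B6 and 28504091 to 33754386 in siNC. The share of mitochondrially encoded reads was 10.8%, 10.6% and 11.8% in siSF3B6 and 3.38%, 3.93% and 9.07% in siNC, so siNC replicate 3 was nearer to siSF3B6 than to the other controls. In the same library 24579 genes had a read, against 30930 and 32041 in siNC replicates 1 and 2 and 24516 to 25566 in siSF3B6. No pair of libraries was identical. Replicates 1 and 2 stood closest, with a chi-square per gene averaging 2.3 in siSF3B6 and 3.49 in siNC, against 16.6 to 67.5 for within-group pairs holding a replicate 3. All 6 markers fixed for the line (VIM, CD44, KRT18, AXL, CAV1, EGFR) were at or above 1 CPM, and ESR1, PGR, CD3E, PTPRC, DCN, VWF and CDH5 were below 1 CPM. The summed level of the 5 markers that are low or absent in this line was 42.0 to 46.6 CPM in siSF3B6 and 25.1 to 25.8 CPM in siNC. All 3 of these that were tested were called higher, EPCAM and CDH1 among them. Summed leukocyte markers were 4.42 to 8.36 CPM in siSF3B6 and 2.78 to 4.22 CPM in siNC. Summed fibroblast markers were 6.94 to 8.39 CPM in siSF3B6 and 6.81 to 7.65 CPM in siNC, and summed endothelial markers 6.86 to 7.9 CPM in siSF3B6 and 8.42 to 9.99 CPM in siNC. Of the markers tested, 1 of 6 for the line (CAV1) and 2 of 3 leukocyte genes were called higher. Of 3 fibroblast genes 1 was called higher and 1 lower, and the 1 endothelial gene tested (PECAM1) was called lower. The part of these markers in the results was not tested.

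The ribosome biogenesis genes split in direction, with more called lower than higher. Of 55 tested, 18 were lower in siSF3B6 (32.7%), 9 were higher (16.4%) and 28 were not called at an edgeR adjusted p of 0.05 over all genes. Over all 16869 genes tested, 20.0% were called lower and 20.8% higher, 40.8% in either direction. Over protein-coding genes the shares were 22.5% lower and 23.2% higher, 45.7% in either direction. Many genes moved in this comparison, so a call by itself does not set these genes apart. Scaling by library size only gave 25 lower and 6 higher, against 30.1% and 16.2% of protein-coding genes, with the median of all genes shifted to -0.1. Without siNC replicate 1 or without siNC replicate 2 the count called higher was 5, and without siNC replicate 3 it was 14. Over all genes, 2661, 2503 and 3881 were called higher in these fits in turn, against 3509 with all libraries. The median log2 fold change was -0.09 for the 55 genes, against 0.00 for all genes tested, and single values ran from -0.78 to 0.52. The siSF3B6 and siNC libraries did not overlap for 29 of the 55 genes, 19 with siSF3B6 lower and 10 higher, against 52.1% of all genes tested and 56.9% of protein-coding genes. Of the 55 genes, 6 had a change of at least 1.5-fold in size (10.9%), against 18.8% of all genes tested and 17.1% of protein-coding genes. The level of the 55 genes in sum was 4206, 4277 and 4295 CPM in siSF3B6 and 4585, 4486 and 4511 CPM in siNC. In bulk RNA, fewer cells expressing a gene and less RNA per cell cannot be told apart.

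**Figure D1:**
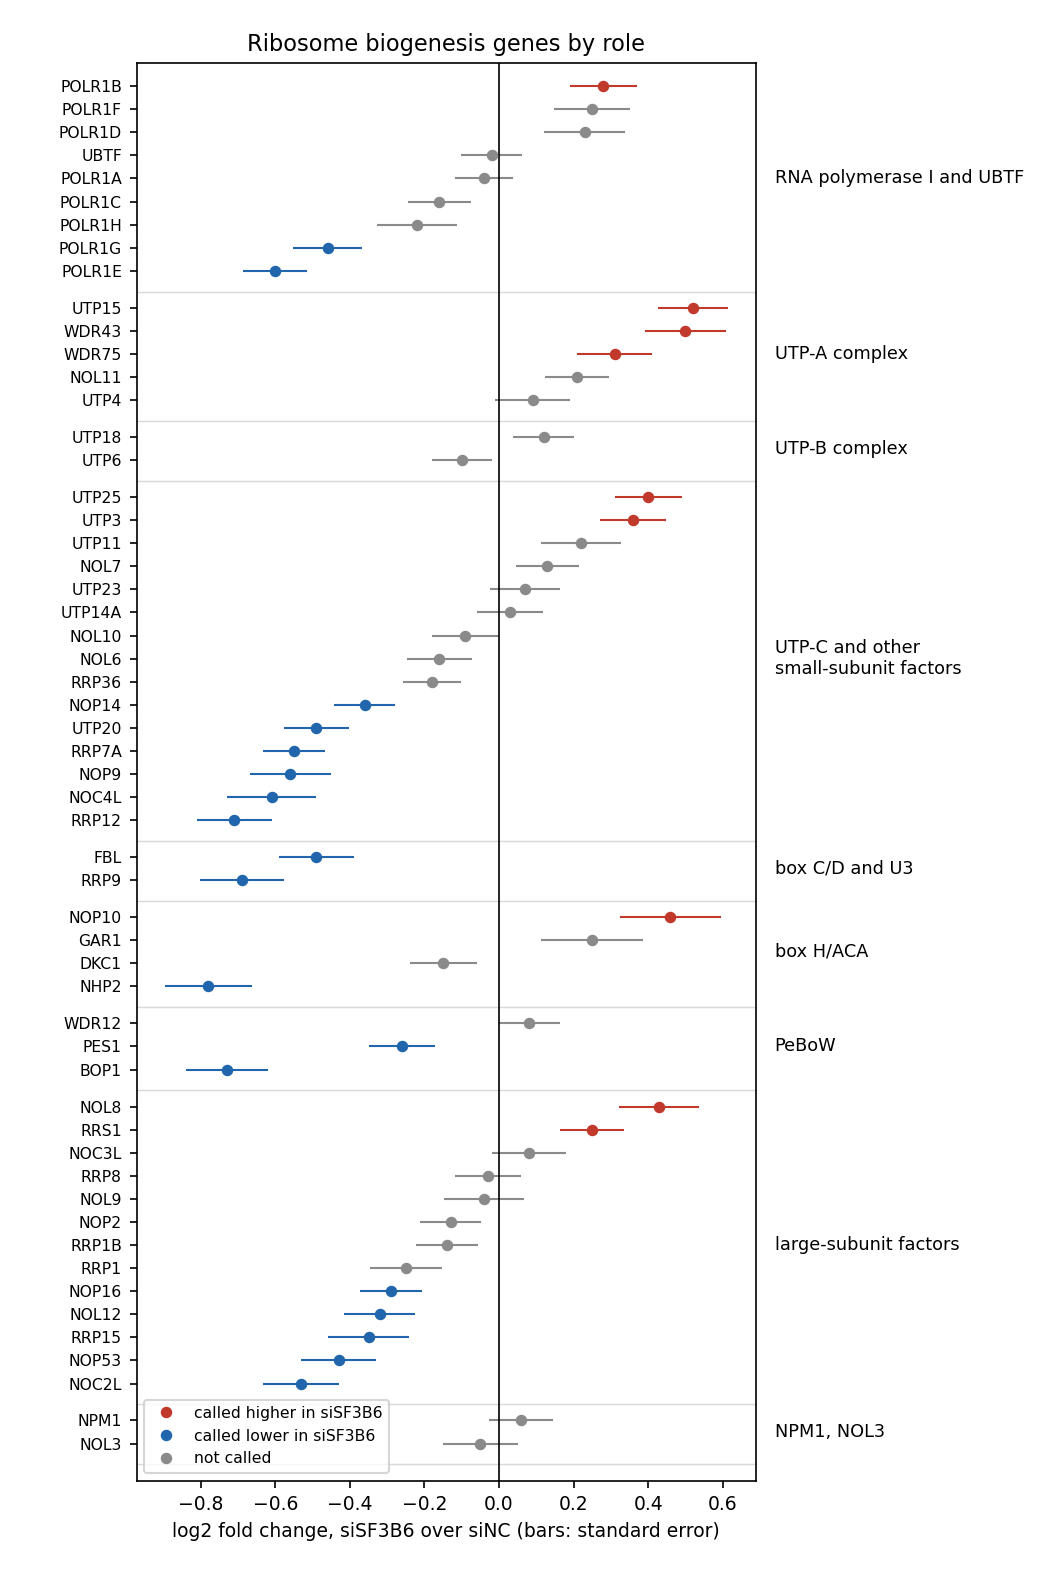
Log2 fold change of each tested gene, siSF3B6 over siNC, grouped by role, with the standard error as bars and the edgeR call as colour. Polymerase I, box H/ACA, PeBoW and large-subunit genes lie on both sides of 0, whereas the 5 UTP-A genes lie above it (UTP4 at -0.01 with library size scaling and -0.14 with siNC replicate 3 as sole control) and the 2 box C/D and U3 genes below it.

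RNA polymerase I subunits moved unequally. Among 9 genes, POLR1E and POLR1G were lower, POLR1B was higher, and 6 were not called. POLR1A, the largest subunit and part of the catalytic centre, had 65.5, 64.4 and 64.6 CPM in siSF3B6 and 63.0, 69.6 and 67.5 CPM in siNC (log2 fold change -0.04, SE 0.077, edgeR adjusted p = 0.701). Its groups overlapped. POLR1B, the second-largest subunit, had 39.6, 37.4 and 42.1 CPM in siSF3B6 and 30.2, 32.6 and 35.0 CPM in siNC (log2 fold change 0.28, SE 0.089, edgeR adjusted p = 0.0205), and its groups did not overlap. That call was lost with library size scaling (0.18, edgeR adjusted p = 0.124), in the 3 FPKM fits, and without siSF3B6 replicate 1, siNC replicate 1 or siNC replicate 2 (edgeR adjusted p of 0.0646, 0.12 and 0.0697).

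POLR1E and POLR1G form a pair of subunits bound to the rim of the polymerase. POLR1E (chromosome 9, 37485935 to 37503697, plus strand, GRCh38) had 25.7, 26.8 and 23.8 CPM in siSF3B6 and 38.6, 40.2 and 36.6 CPM in siNC (log2 fold change -0.60, SE 0.086, edgeR adjusted p = 0.000152). POLR1G (chromosome 19, 45406209 to 45410766, plus strand) had 16, 15.8 and 14.9 CPM in siSF3B6 and 20, 21.3 and 22.9 CPM in siNC (log2 fold change -0.46, SE 0.092, edgeR adjusted p = 0.0014). Every siSF3B6 library was below every siNC library for both. Exons of POLR1G overlap genes on the other strand, ERCC1 and PPP1R13L, over 45.1% of their bases, and whether reads were counted by strand is not given in the sources used here.

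The other polymerase I genes did not pass the test. POLR1F, the stalk subunit, had 39.5, 36.6 and 46.5 CPM in siSF3B6 and 33.6, 31.9 and 37.4 CPM in siNC (log2 fold change 0.25, edgeR adjusted p = 0.0654). POLR1D, shared with RNA polymerase III, had 69.9, 68.3 and 61.2 CPM in siSF3B6 and 51.1, 51.2 and 67.3 CPM in siNC (0.23, edgeR adjusted p = 0.101). In both genes the groups overlapped in 2 libraries, siNC replicate 3 being above siSF3B6 replicate 3 for POLR1D and above siSF3B6 replicate 2 for POLR1F. POLR1C, the partner of POLR1D and also shared with RNA polymerase III, had 52.3, 49.7 and 44.8 CPM in siSF3B6 and 56.7, 54.8 and 52.3 CPM in siNC (-0.16, edgeR adjusted p = 0.154). POLR1H, a small subunit with a role in RNA cleavage, had 23.4, 27.9 and 23.6 CPM in siSF3B6 and 32.0, 30 and 25.1 CPM in siNC (-0.22, edgeR adjusted p = 0.125). UBTF had 91.3, 85.0 and 85.1 CPM in siSF3B6 and 94.4, 90.2 and 80.3 CPM in siNC (-0.02, edgeR adjusted p = 0.876). The ranges of these 3 also overlapped.

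The UTP-A complex, which joins the earliest precursor and is tied to transcription of the ribosomal repeats, held 3 of the 9 genes called higher. UTP15 (chromosome 5, 73565443 to 73583377, plus strand) had 32.7, 33.8 and 39.3 CPM in siSF3B6 and 25.8, 24.5 and 23.4 CPM in siNC (log2 fold change 0.52, SE 0.094, edgeR adjusted p = 0.000691). WDR43 (chromosome 2, 28894643 to 28948222, plus strand) had 52.1, 54.6 and 69.8 CPM in siSF3B6 and 39.4, 41.3 and 44.1 CPM in siNC (0.50, SE 0.108, edgeR adjusted p = 0.00236). WDR75 had 52.7, 52.3 and 61.7 CPM in siSF3B6 and 42.3, 41.3 and 50.4 CPM in siNC (0.31, SE 0.1, edgeR adjusted p = 0.022). All siSF3B6 libraries were above all siNC libraries in these 3 genes. NOL11 (0.21) and UTP4 (0.09) were not called, and UTP4 was at -0.01 with library size scaling and at -0.14 with siNC replicate 3 as sole control. With a correction for GC content and length, UTP15 was at 0.31, WDR43 0.32, WDR75 0.10, NOL11 0.05 and UTP4 0.02. Only UTP15 and WDR43 were called under it. The WDR75 call was lost with library size scaling (0.21, edgeR adjusted p = 0.0934), in the 3 FPKM fits, and without siNC replicate 1, siNC replicate 2 or siSF3B6 replicate 3 (edgeR adjusted p of 0.0983, 0.111 and 0.0796). In UTP-B, neither UTP18 (0.12) nor UTP6 (-0.10) was called.

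Of 15 UTP-C and other small-subunit factors, 6 were lower and 2 were higher. RRP12, an export factor for pre-ribosomes in yeast, had 35.3, 37.5 and 30.6 CPM in siSF3B6 and 59.8, 59.1 and 50 CPM in siNC (log2 fold change -0.71, SE 0.1, edgeR adjusted p = 0.000132). NOC4L, whose yeast counterpart binds NOP14, had 18.4, 18.8 and 14.1 CPM in siSF3B6 and 28.3, 26.9 and 23.0 CPM in siNC (-0.61, SE 0.119, edgeR adjusted p = 0.00126). NOP9, an RNA-binding factor of the small-subunit precursor in yeast, had 13.5, 14.6 and 14.5 CPM in siSF3B6 and 23.9, 20.9 and 18.1 CPM in siNC (-0.56, SE 0.108, edgeR adjusted p = 0.00111). The groups were separate for all 3. RRP7A, a small-subunit processome factor, had 75.7, 78.9 and 67.9 CPM in siSF3B6 and 112, 111 and 102 CPM in siNC (-0.55, SE 0.083, edgeR adjusted p = 0.000204). UTP20, a very long processome scaffold, had 31.6, 30.5 and 36.0 CPM in siSF3B6 and 44.9, 47.7 and 44.6 CPM in siNC (-0.49, SE 0.088, edgeR adjusted p = 0.000753). NOP14, the processome protein, was the sixth, at -0.36. The groups did not overlap for these either.

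Against these, UTP25 and UTP3, processome factors, were higher. UTP25 had 42.0, 37.8 and 44.6 CPM in siSF3B6 and 33.2, 29.9 and 31.0 CPM in siNC (log2 fold change 0.40, SE 0.090, edgeR adjusted p = 0.00303). UTP3 had 65.6, 61.9 and 73.5 CPM in siSF3B6 and 54.2, 48.5 and 54.1 CPM in siNC (0.36, SE 0.089, edgeR adjusted p = 0.00565). Every siSF3B6 library was above every siNC library in both. The 7 others, RRP36, NOL6, NOL10, UTP14A, UTP23, NOL7 and UTP11, ran from -0.18 to 0.22 and were not called.

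Both box C/D and U3 genes were lower. FBL, the methyltransferase of box C/D particles (chromosome 19, 39834458 to 39846414, minus strand), had 182, 190 and 165 CPM in siSF3B6 and 275, 264 and 212 CPM in siNC (log2 fold change -0.49, SE 0.1, edgeR adjusted p = 0.00177). RRP9, a U3-specific protein (chromosome 3, 51933430 to 51941941, minus strand), had 30.4, 30.3 and 24.6 CPM in siSF3B6 and 47.2, 50.9 and 39.3 CPM in siNC (-0.69, SE 0.112, edgeR adjusted p = 0.000357). In both, siNC replicate 3 was the lowest control and still above all siSF3B6 libraries.

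The 4 core proteins of box H/ACA particles did not move together. NHP2 (chromosome 5, 178149460 to 178153967, minus strand) had 66.3, 70.3 and 53.9 CPM in siSF3B6 and 96.9, 102 and 127 CPM in siNC (log2 fold change -0.78, SE 0.117, edgeR adjusted p = 0.000197), with no overlap. NOP10 (chromosome 15, 34341713 to 34343177, minus strand) had 135, 138 and 116 CPM in siSF3B6 and 79.8, 81.6 and 121 CPM in siNC (0.46, SE 0.136, edgeR adjusted p = 0.0152). Its groups overlapped, since siNC replicate 3 was above siSF3B6 replicate 3, and its call was lost in the 3 FPKM fits and without siNC replicate 1 or 2 (edgeR adjusted p of 0.0757 and 0.0771). DKC1, the pseudouridine synthase, had 66.3, 69.6 and 78.3 CPM in siSF3B6 and 83.9, 81.4 and 72.1 CPM in siNC (-0.15, edgeR adjusted p = 0.204). GAR1 had 44.8, 46.2 and 51.6 CPM in siSF3B6 and 36.9, 32.0 and 50.8 CPM in siNC (0.25, edgeR adjusted p = 0.161). Neither was called, and both groups overlapped. NHP2 shares 27.4% of its exonic bases with RMND5B on the other strand.

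In PeBoW, BOP1 and PES1 were lower and WDR12 was not called. BOP1 had 65.7, 66.8 and 54.8 CPM in siSF3B6 and 113, 111 and 86.7 CPM in siNC (log2 fold change -0.73, SE 0.110, edgeR adjusted p = 0.000199). PES1 had 82.4, 89.3 and 76.8 CPM in siSF3B6 and 101, 105 and 90.0 CPM in siNC (-0.26, SE 0.088, edgeR adjusted p = 0.032). WDR12 had 48.8, 48.6 and 51.0 CPM in siSF3B6 and 44.2, 45.4 and 50.7 CPM in siNC (0.08, edgeR adjusted p = 0.469). The BOP1 and PES1 groups were separate, and those of WDR12 overlapped. The PES1 call was lost without siSF3B6 replicate 1 or 3 and without siNC replicate 1 or 2 (edgeR adjusted p of 0.0881, 0.0669, 0.109 and 0.148).

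Among 13 other large-subunit factors, 5 were lower and 2 were higher. NOC2L had 106, 111 and 98.0 CPM in siSF3B6 and 162, 166 and 126 CPM in siNC (log2 fold change -0.53, SE 0.102, edgeR adjusted p = 0.00118). NOP53 (-0.43), RRP15 (-0.35), NOL12 (-0.32) and NOP16 (-0.29) were the others called lower. NOL8 had 45.9, 44.0 and 59.0 CPM in siSF3B6 and 36.3, 36.1 and 38.4 CPM in siNC (0.43, SE 0.107, edgeR adjusted p = 0.00624). RRS1 had 30.1, 31.3 and 29.6 CPM in siSF3B6 and 25.2, 24 and 27.3 CPM in siNC (0.25, SE 0.086, edgeR adjusted p = 0.0309). The NOC2L, NOL8 and RRS1 groups did not overlap, whereas those of RRP15 did. The RRS1 call was lost with library size scaling (0.15, edgeR adjusted p = 0.187) and in the 3 FPKM fits. It was also lost without siSF3B6 replicate 1 or 2 or siNC replicate 1 or 2 (edgeR adjusted p of 0.0831, 0.108, 0.111 and 0.151). The RRP15 call was lost without siSF3B6 replicate 1 or 2 or siNC replicate 1 (0.0814, 0.098 and 0.0881), and the NOL12 call without siSF3B6 replicate 1 or siNC replicate 1 or 2 (0.0528, 0.0581 and 0.0514). The other 6, among them the RNA methyltransferases NOP2 and RRP8 and the polynucleotide kinase NOL9, ran from -0.25 to 0.08.

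NPM1, the abundant nucleolar chaperone, had 1008, 1044 and 1121 CPM in siSF3B6 and 1032, 965 and 1047 CPM in siNC (log2 fold change 0.06, edgeR adjusted p = 0.61). Rows for its 33 pseudogene copies held 0.69% as many reads as NPM1. NOL3, taken in by symbol with no ribosome-building role assigned here, was at -0.05, and neither was called.

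**Figure D2:**
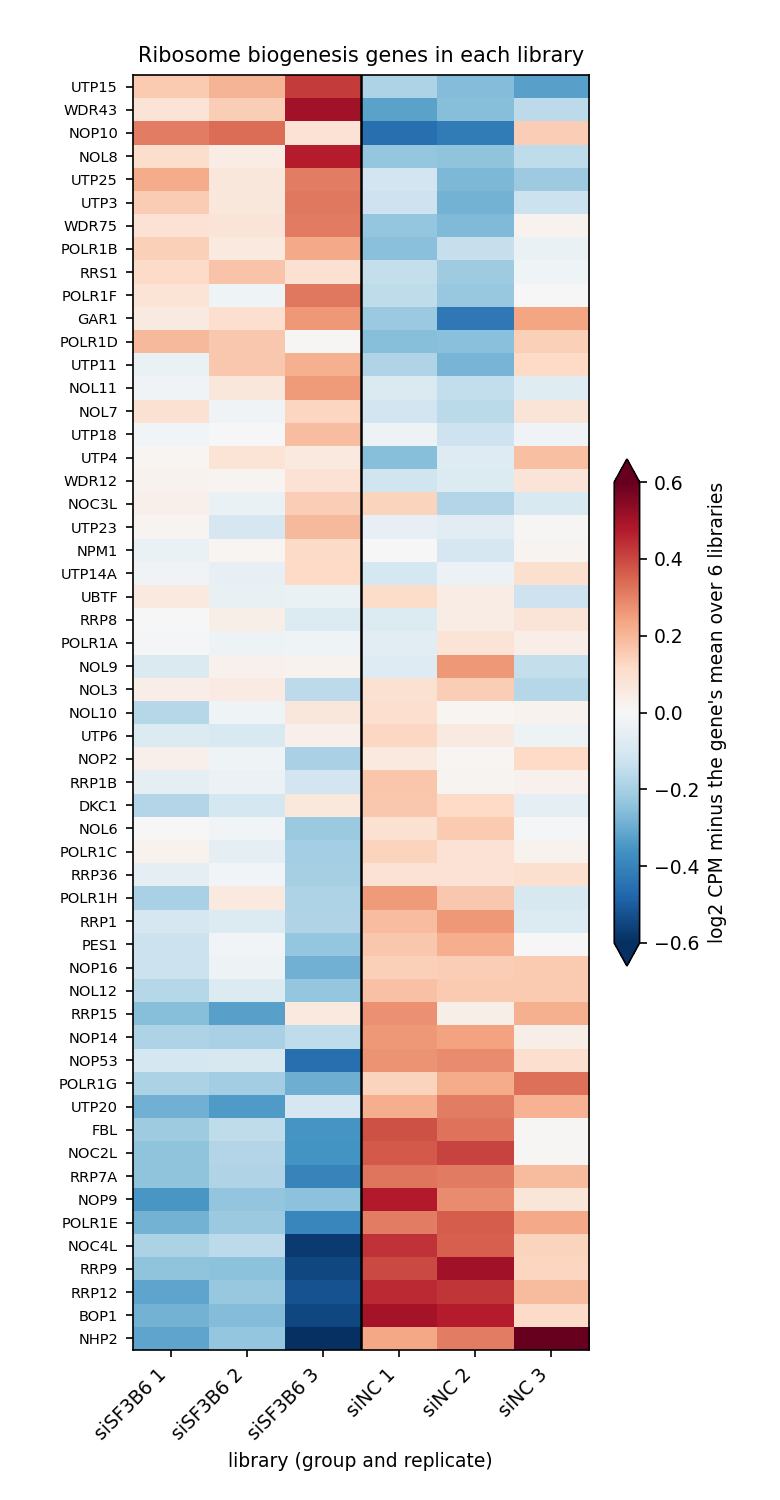
Log2 CPM of each tested gene in each library minus its mean over the 6 libraries, with siSF3B6 on the left and genes ordered by log2 fold change. NHP2, BOP1, RRP12 and RRP9 at the bottom are low in the siSF3B6 libraries and high in the siNC libraries, and NOP10 is high in siNC replicate 3 as well as in siSF3B6.

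Levels per length, in FPKM (fragments scaled to transcript length and library size), differ widely between these genes. NOP10 averaged 212 FPKM in siSF3B6 and 159 FPKM in siNC, the highest level of the set. NPM1 averaged 105 FPKM in both groups. FBL averaged 69.1 FPKM in siSF3B6 and 100.0 FPKM in siNC. POLR1A, with 2.72 FPKM in siSF3B6 and 2.90 FPKM in siNC, and RRP12, with 3.34 FPKM in siSF3B6 and 5.66 FPKM in siNC, were far lower. The median over the genes was 8.76 FPKM in siSF3B6 and 9.23 FPKM in siNC. In siNC, 14 genes were below 5 FPKM and 7 were at 30 FPKM or more.

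Ratios of reads between partners within a library do not depend on the scaling of libraries. The pairs below were chosen after the values were seen, so they describe and do not test. NHP2 over NOP10 was 0.491, 0.508 and 0.465 in siSF3B6 and 1.21, 1.25 and 1.05 in siNC. POLR1E over POLR1A was 0.393, 0.416 and 0.368 in siSF3B6 and 0.613, 0.578 and 0.542 in siNC, and POLR1G over POLR1A was 0.243, 0.246 and 0.231 in siSF3B6 and 0.318, 0.306 and 0.339 in siNC. These groups did not overlap. BOP1 over WDR12 was 1.34, 1.38 and 1.07 in siSF3B6 and 2.56, 2.45 and 1.71 in siNC. UTP15 over UTP20, a UTP-A gene over a processome scaffold, was 1.04, 1.11 and 1.09 in siSF3B6 and 0.574, 0.513 and 0.525 in siNC. UTP15 and UTP20 were each already separate between the groups, in opposite directions, so their ratio had to be separate. By contrast, POLR1E over POLR1G was 1.61, 1.69 and 1.59 in siSF3B6 and 1.93, 1.89 and 1.6 in siNC, with overlap. NOP10 over DKC1 was 2.04, 1.99 and 1.48 in siSF3B6 and 0.951, 1.0 and 1.68 in siNC. GAR1 over DKC1 was 0.676, 0.663 and 0.658 in siSF3B6 and 0.44, 0.393 and 0.705 in siNC. The groups also overlapped in both of these box H/ACA ratios.

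**Figure D3:**
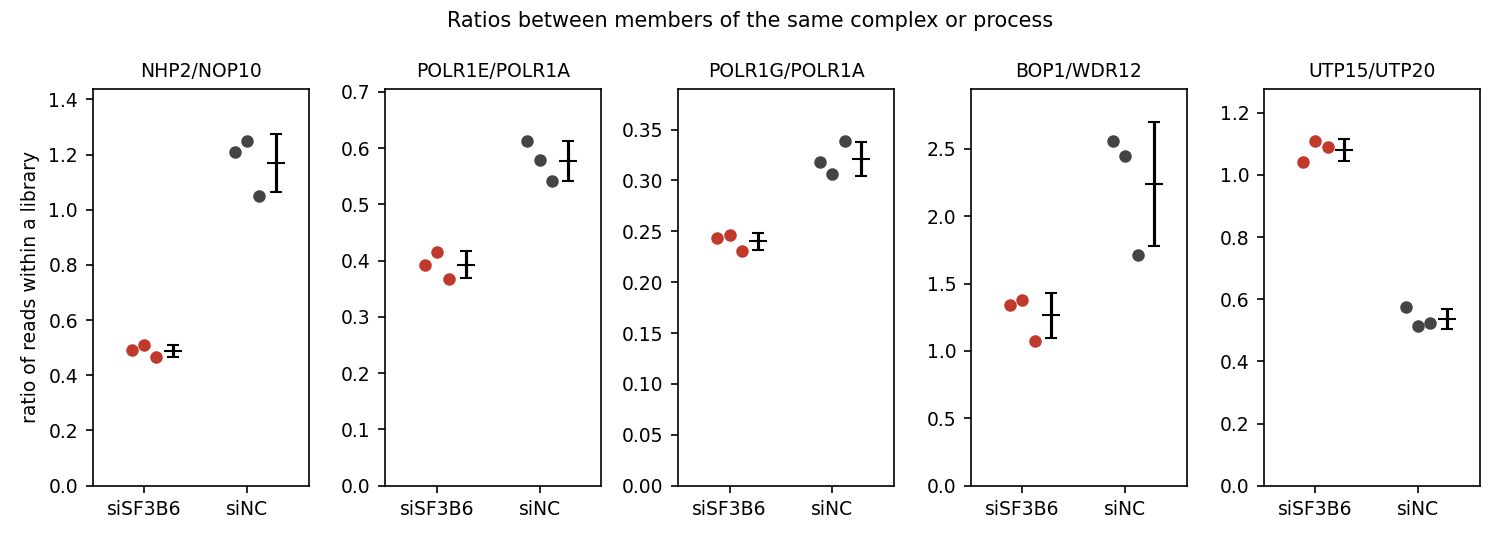
Ratio of reads of 2 genes within each library, with siSF3B6 left of siNC, dots for libraries and bars for the mean and SD (n = 3). In these 5 ratios the siSF3B6 and siNC libraries do not overlap, with NHP2 over NOP10 at 0.465 to 0.508 in siSF3B6 and 1.05 to 1.25 in siNC.

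Ribosome biogenesis genes outside the rule were also split in direction. Of 106 tested, 29 were higher (27.4%) and 25 were lower (23.6%), with a median log2 fold change of 0.03. These shares were near those of protein-coding genes, 23.2% higher and 22.5% lower. The balance turned under other scalings, with 14 higher and 36 lower by library size only, and 17 higher and 28 lower in FPKM. By library size only, 16.2% of protein-coding genes were called higher and 30.1% lower. In FPKM, 2470 of all genes were called higher and 3472 lower. MPHOSPH10, a U3 partner, had 27.5, 27.8 and 35.9 CPM in siSF3B6 and 17.6, 17.9 and 19.4 CPM in siNC (0.73, SE 0.110, edgeR adjusted p = 0.000202). NOLC1 (0.60), a chaperone of small nucleolar particles, RIOK2 (0.60), a kinase of small-subunit maturation, and TAF1D (0.56), part of the polymerase I promoter factor, were also higher. BMS1, a processome GTPase, had 54.8, 56.7 and 60.4 CPM in siSF3B6 and 93.7, 90.7 and 82.8 CPM in siNC (-0.64, SE 0.082, edgeR adjusted p = 6.25e-05). WDR18 (-0.63), NVL (-0.61) and FTSJ3 (-0.60), large-subunit factors, were also lower.

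Neighbouring gene groups were read for comparison, with no test between lists. Of 5 subunits shared by the RNA polymerases, POLR2H (-0.66) and POLR2F (-0.41) were lower and 1 was higher. Of 11 RNA polymerase III subunits, POLR3K (-0.79) and POLR3GL (-0.43) were lower and 0 were higher at the edgeR threshold. Of 8 RNA polymerase II subunits, POLR2C (0.26) and POLR2B (0.22) were higher. Among 15 exosome and processing genes, 4 were higher, DIS3 (0.57) among them, and 3 were lower, EXOSC5 (-0.48) among them. Cytosolic ribosomal proteins had a median of -0.02, with 7 of 82 higher and 9 lower, and mitochondrial ones a median of -0.09, with 9 of 78 higher and 21 lower. The calls of POLR2B, POLR2C and POLR2F were each lost when some single library was left out. POLR2B (0.12) and POLR2C (0.16) were also not called by library size only, nor POLR2B (0.06) and POLR2F (-0.24) with a correction for GC content and length.

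Fold change varied with the base composition of the transcript, in these genes and in all protein-coding genes. Across the 55 genes, Pearson r between log2 fold change and GC content of the longest transcript was -0.66 (Spearman rho -0.65). Across 13451 protein-coding genes r was -0.36 (rho -0.39). Genes share libraries and are not independent, so these values describe only. The median GC content was 43.7% for the 9 genes called higher and 57.4% for the 18 called lower. Below 45% GC, 7 of 18 genes were higher (38.9%) and 2 were lower (11.1%), against 37.0% and 11.2% of protein-coding genes in that range. From 45% to below 55%, 1 of 22 was higher (4.55%) and 6 were lower (27.3%), against 20.8% and 22.9%. At 55% or above, 1 of 15 was higher (RRS1) and 10 were lower, or 66.7%, against 36.6% of protein-coding genes in that range. UTP20 (42.3% GC) and RRP15 (35.2% GC) were the 2 called lower below 45%.

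**Figure D4:**
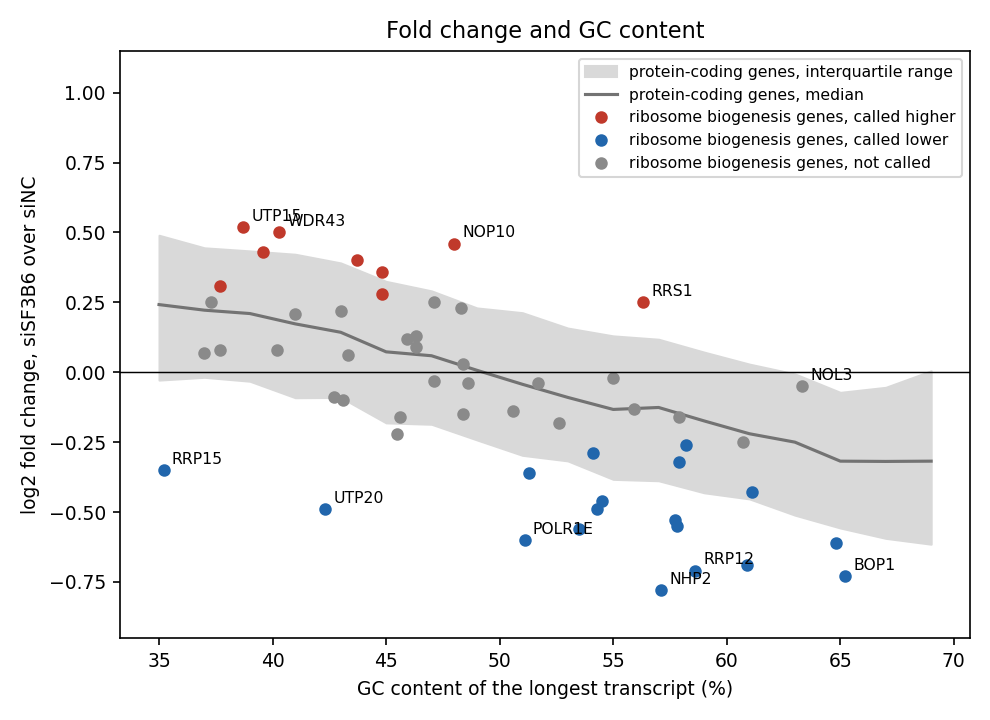
Log2 fold change, siSF3B6 over siNC, against the GC content of the longest transcript, with the grey line and band giving the median and interquartile range of protein-coding genes. Genes called higher cluster at the left and genes called lower at the right, and UTP20 and RRP15 lie low at 42.3% and 35.2% GC.

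A correction of the counts for GC content and transcript length gave 9 higher and 20 lower, against 26.3% and 25.7% of protein-coding genes called under it. It retained 8 of the 9 higher calls, without WDR75 (0.10), and 16 of the 18 lower calls, without NOL12 (-0.15) and PES1 (-0.08). UTP20 was at -0.65 and RRP15 at -0.60 under it, larger than without it, as was RRS1 at 0.41. Calls that held but shrank by over 1.5 times were UTP15 (0.31), WDR43 (0.32), NOL8 (0.22), POLR1B (0.18), BOP1 (-0.41), RRP9 (-0.45), NOC4L (-0.30), NOP53 (-0.24) and NOP16 (-0.17). Outside the set, WDR18 (-0.30), TAF1D (0.33), RIOK2 (0.37), DIS3 (0.36) and EXOSC5 (-0.24) did so too. POLR1H, POLR1C, UTP6 and NOL10, not called in the reported test, were called lower under the offset, and NOL3 was called higher (0.24).

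Many calls depended on which control libraries entered the test. Of the genes called lower, siNC replicate 3 was the control nearest to the siSF3B6 mean in 13 of 18, of those called higher in 6 of 9, and of those not called in 16 of 28, or 35 of all 55. How often siNC replicate 3 was the nearest control over all genes tested was not counted. With that library as the lone control, assumed to vary as the siSF3B6 libraries do, 8 genes were called lower and 1 higher, against 8.63% and 7.78% of protein-coding genes. These were NHP2 (-1.02), POLR1G (-0.57), RRP12 (-0.55), POLR1E (-0.54), BOP1 (-0.49), RRP9 (-0.48), RRP7A (-0.48), UTP20 (-0.46) and, higher, UTP15 (0.58). The same 9 genes had the same call in the reported test and in all 22 alternatives. NOP10 was at 0.09 and FBL at -0.26, with edgeR adjusted p of 0.709 and 0.176. With only the libraries numbered 1 and 2, 16 genes were higher and 26 were lower, against 32.1% and 30.2% of protein-coding genes. Leaving the mitochondrially encoded genes out of the fit left 9 higher and 18 lower.

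**Figure D5:**
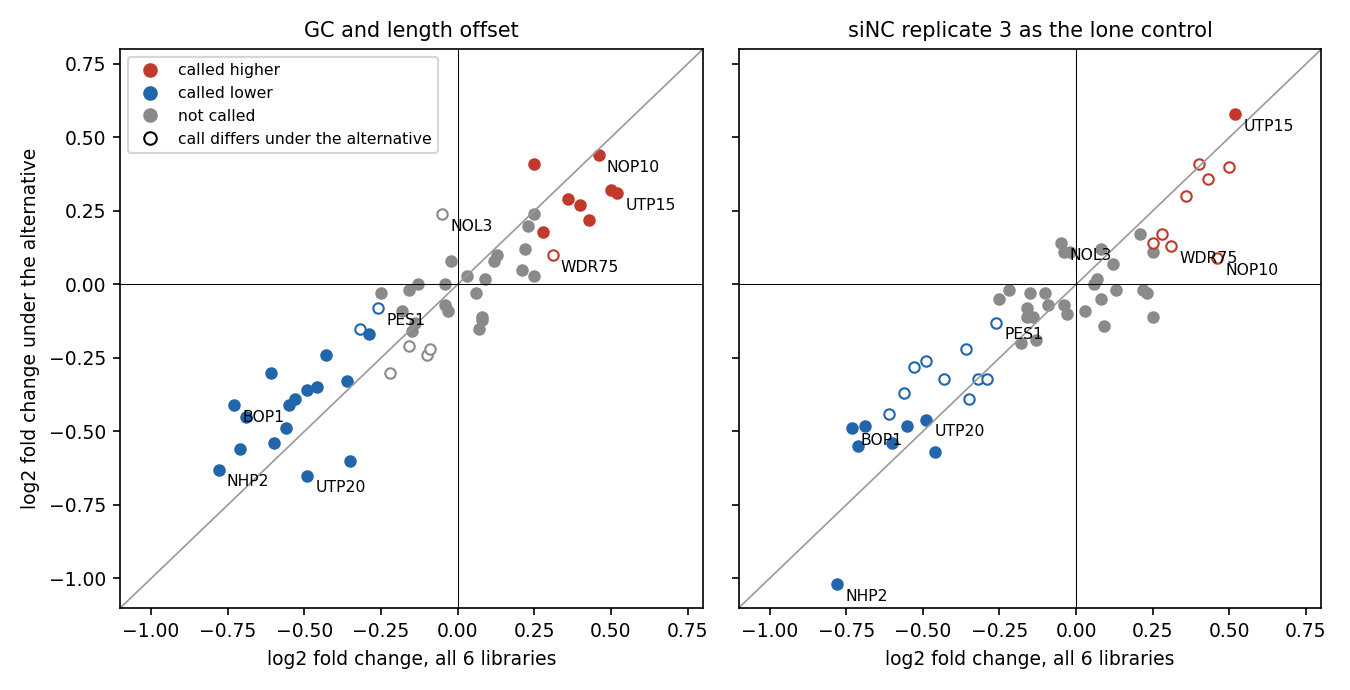
Log2 fold change under the GC and length offset (left) and with siNC replicate 3 as sole control (right) against that from all 6 libraries, with colour for the reported call and open circles where the call differs. NHP2, BOP1, UTP20 and UTP15 stay filled in both panels, and NOP10 falls to 0.09 in the right panel.

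Several of these genes overlap a neighbour. On the same strand, NOP2 shares 54.4% of its exonic bases with AC006064.6, NOL12 22.0% with Z83844.1 and RRS1 11.4% with AC009879.2. On the other strand, NOP9 shares 32.4% with CIDEB and POLR1H 24.5% with ZNRD1ASP. Counts of these genes may include reads of both, on the other strand only if reads were counted without regard to strand. Small nucleolar RNA genes lie in introns of DKC1, NOL11, NOP53 and WDR43, and those in the table had at most 1 read in any library.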

How the data were processed

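Polyadenylated RNA of 6 MDA-MB-231 libraries was sequenced from strand-specific libraries, per the labels' protocols. The authors deposited read counts per gene, whole and not normalized, and FPKM values rounded to 2 decimals for 39210 genes, scaled by the authors. The submitters' processing notes name HISAT2, DESeq2 and hg38, with no versions. Which program counted reads, by strand or not, and with which annotation is not given in the sources used here. Groups and replicate numbers came from the titles, which all name MDA-MB-231. The label field for the line instead runs in steps from MDA-MB-231 to MDA-MB-236 over the samples. Counts were filtered with filterByExpr, TMM-scaled and tested with edgeR 4.0.16 (quasi-likelihood) in R 4.3.3, siSF3B6 over siNC, with no block for replicate numbers. Benjamini-Hochberg adjustment ran over all 16869 genes tested, and 0.05 was the threshold. Each standard error is the size of the log2 fold change over the root of its F statistic. The gene set and lists were chosen with earlier results of these data known. Named genes are the POLR1 subunits and UBTF, up to 10 called genes per direction with at least 5 mean CPM, and 9 core proteins, then up to 4 called genes per direction of the other biogenesis list and 2 of other lists, with UTP20 added because its call held throughout. Positions, GC content and length came from GENCODE 29 (longest transcript), and promoters from RefSeq. Alternatives used DESeq2 1.42.0, limma 3.58.1 on counts or on log2(FPKM + 1) and log2(FPKM + 0.1), other scaling and filters, a block, the offset (lowess span 0.3) and left-out libraries. Results for 1 comparison list are not reported here.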

Additional observations from a re-analysis of the deposited data

How the results depend on the processing

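None of the 27 ribosome biogenesis genes called in the reported test reversed under the 22 alternatives. Counts below are for the ribosome biogenesis genes unless stated. With library size only, their median was -0.19 and 14 other biogenesis genes were higher and 36 lower. With log2(FPKM + 1) or log2(FPKM + 0.1) at 0.5 FPKM or more, 5 were higher, 17 other biogenesis genes were higher, and the medians were -0.12 and -0.14. Without that filter, 17 were called, 1 higher, with a median of -0.12, 27 other biogenesis genes were called, 10 higher, and 3817 of all genes were called, 1561 higher. With siNC replicate 3 as the lone control, 9 were called (1 higher, 8 lower), 17 other biogenesis genes (7 higher, 10 lower) and 2471 of all genes (1178 higher, 1293 lower). With the libraries numbered 1 and 2 only, 42 were called, 16 higher, with a median of -0.12. Leaving out each library in turn gave 20 to 34 called, 5 to 14 higher and 15 to 20 lower, medians of -0.11 to -0.07, and 32 to 58 other biogenesis genes called, 16 to 30 higher and 15 to 28 lower. Without siNC replicate 1 or without siNC replicate 2, 5 were higher, and without siNC replicate 3, 14 were. All genes called ran from 5044 to 7571 (2503 to 3881 higher, 2503 to 3690 lower), and SF3B6 from -2.04 to -1.86. The cause of these shifts was not tested.

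Whether the replicate numbers pair the samples was not settled. Deviations from group means correlated at 0.0397, 0.106 and 0.136 for numbers 1 to 3, and at -0.12 to 0.0369 for unlike numbers. These correlations were weak, but each library correlated best with its own number. The replicate block gave 13 higher and 22 lower and kept all 27 calls. Of all genes, 8052 were called with the block and 6889 in the reported test.

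Among the 55 genes, signs changed only in uncalled ones. With library size only, UTP14A was at -0.07, NPM1 -0.04, UTP23 -0.03, WDR12 -0.02, NOC3L -0.02 and UTP4 -0.01. With FPKM, UTP14A was at -0.02 in all 3 fits. With the GC and length offset, NOL3 was at 0.24, UBTF 0.08, NOP2 0.00171, POLR1A 0.000423, NPM1 -0.03, UTP23 -0.15, WDR12 -0.11 and NOC3L -0.12, and with the block added NOP2 was at 0.00396 and POLR1A 0.00176, with the other 6 the same to 2 decimals. With the lone control, NOL3 was at 0.14, NOL9 0.11, UBTF 0.11, UTP14A -0.09, WDR12 -0.05, UTP4 -0.14, NOL7 -0.02, UTP11 -0.02, POLR1D -0.03 and GAR1 -0.11. With the libraries numbered 1 and 2 only, RRP8 was at 0.04. Leaving out each library in turn gave ranges of -0.14 to 0.01 for NOL3, -0.11 to 0.09 for NOL9, -0.08 to 0.01 for RRP8, -0.08 to 0.03 for UBTF (0.00152 without siSF3B6 replicate 2), -0.03 to 0.09 for UTP14A, -0.02 to 0.14 for UTP23 and -0.01 to 0.22 for UTP4.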
